A study of Mus musculus with 4 samples.

Results

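miR-140 and miR-455 are the microRNAs best known from cartilage, and both arms of their hairpins were followed here through 4 small RNA libraries of mouse embryonic fibroblasts. These fibroblasts are primary, mostly mesenchymal cells grown out of whole embryos. The 4 rows named mmu-miR-140, mmu-miR-140*, mmu-miR-455 and mmu-miR-455* were chosen by name, with their counts in these libraries known: in both pairs the star-named arm, the one listed as the passenger strand, was the more abundant. They are 4 of 508 endogenous microRNAs, and all 4 passed the floor on low counts that 372 microRNAs passed. The floor was a mean level over the libraries equal to 20 counts in the shallowest one.

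All libraries came from cells that carry shLuc.1309, a short hairpin RNA (shRNA). It is aimed at luciferase, which the mouse genome does not encode. There is 1 library in each of 4 groups, which are ROSA-rtTA cells with doxycycline (dox), ROSA-rtTA cells without dox, cells lacking ROSA-rtTA with dox, and cells lacking it without dox. rtTA is a transactivator that binds dox and then switches on tetracycline-responsive promoters, here supplied from the broadly active Rosa26 locus, so that the first group is the one in which the shRNA is induced. The labels do not say how many embryos or cultures stand behind a library. Since no group has a second library, none of the differences could be checked in replicates, and every value below compares libraries and not conditions. No test between groups was run, and intervals cover counting error only, since amplified reads without molecular identifiers are not independent molecules.

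A microRNA hairpin is cut into a duplex of which one strand, the guide, is kept by an Argonaute protein, while the passenger strand is mostly lost. The guide finds its targets through the seed, bases 2 to 8 from the 5′ end, so the arm that is kept decides which transcripts are repressed. In chondrocytes the factor SOX9 drives miR-140, whose loss in mice gives short stature and a short face, and miR-455 has likewise been placed under SOX9. miR-140 lies in the ubiquitin ligase gene Wwp2 and miR-455 in the fibrillar collagen gene Col27a1, both of which are expressed in cartilage.

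The mature sequences, as deposited and in DNA letters, are shown because the 2 arms of each hairpin carry different seeds, here in capitals, so that a shift between arms is a shift between target sets.
mmu-miR-140*: tACCACAGggtagaaccacgg
mmu-miR-140: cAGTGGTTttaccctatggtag
mmu-miR-455*: tATGTGCCtttggactacatcg
mmu-miR-455: gCAGTCCAcgggcatatacac

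None of the 4 seeds is shared within the set. Among all 508 listed microRNAs, only miR-876-3p shares one, that of miR-140, and it was listed with 1 count in rtTA cells with dox and in no other library. No other listed microRNA of the same length lies within 2 mismatches of any of the 4. Copies of other lengths and unlisted loci were not checked. By match to RefSeq sequences on GRCm38.p6, miR-140* is the 3p arm at chr8:107551288-107551308 and miR-140 the 5p arm at chr8:107551249-107551270, both on the plus strand. The miR-140 hairpin of 70 bases falls in intron 16 of Wwp2 transcript Wwp2-201, which has 24 exons, and in intron 15 or 7 of other coding transcripts, all in the sense of the gene. In that hairpin the capitals mark the 5p arm first and the 3p arm after the loop.
Mir140 hairpin: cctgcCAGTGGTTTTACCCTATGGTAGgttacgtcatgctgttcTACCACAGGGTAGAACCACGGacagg

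For miR-455 the naming runs the other way, since the star-named arm is the 5p arm. miR-455* lies at chr4:63256867-63256888 and miR-455, the 3p arm, at chr4:63256904-63256924, on the plus strand within intron 10 of Col27a1 transcript Col27a1-201, which has 61 exons. Both star-named arms begin with U (T in DNA letters), while miR-140 begins with C and miR-455 with G. Argonaute is known to favour guides with a 5′ U. Among 125 hairpins whose arms together had 20 counts or more in every library, 69 have one arm that begins with U and one that does not. The arm with U was the more abundant in 55 of them (79.7%). The miR-140 and miR-455 hairpins are counted in both numbers and were chosen with their dominant arms known. Whether the first base bears on their arm shares was not tested. The deposited rows carry 1 sequence for each name, so reads of an arm that start a base earlier or later cannot be separated here.

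The libraries hold 7690978 counts (rtTA, +dox), 8780954 (rtTA, -dox), 6545093 (no rtTA, +dox) and 6383594 (no rtTA, -dox). The shRNA row took 2.38% of all counts in rtTA cells with dox, against 0.0725% to 0.0786% in the others. Levels are given as CPM, counts per 1000000 endogenous microRNA counts without the shRNA row; a mature microRNA is read whole, so no scaling by length is needed, although cloning efficiency differs between sequences. Marker lists were chosen with earlier results of these data known, so their levels describe the libraries and do not test the labelled cell type. Of 9 mesenchymal and fibroblast microRNAs 8 were listed, with a summed level of 444613 to 460521 CPM. The pluripotent list (4 of 6 listed) summed to 0.306 to 0.666 CPM, and 0 of its 6 members passed the floor. The muscle list (4 of 4 listed) summed to 592 and 382 CPM in rtTA cells with and without dox. In cells without rtTA it summed to 246 and 262 CPM, with and without dox. Most of the sum was miR-206, with 4315 counts in rtTA cells with dox and 3092 without. With dox in rtTA cells miR-1, miR-133a and miR-133b went the other way, at log2 ratios of -1.08, -0.44 and -0.32, miR-133b being below the floor. The epithelial list (6 of 6) and the blood list (4 of 4) were highest in the rtTA library without dox, at 18.6 and 77.5 CPM, against 4.23 to 9.06 and 48.7 to 57.2 CPM in the other libraries. Of the epithelial list 0 of 6 passed the floor. Its member miR-205 had 76 counts in that library, against 17 in rtTA cells with dox and 6 and 4 in cells without rtTA, with and without dox. The neural list (4 of 4) reached 413 to 617 CPM, the endothelial list (2 of 2) 120 to 175, and the liver marker miR-122 2.51 to 3.99. The part of such cells in the values below was not tested, and fewer cells of a type cannot be told apart from less RNA per cell.

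miR-140*, the 3p arm, was the most abundant of the 4 in every library. It had 817 CPM in rtTA cells with dox (95% interval 797 to 838), 674 CPM in rtTA cells without dox (657 to 692), 609 CPM in cells without rtTA with dox (590 to 628) and 657 CPM in cells without rtTA or dox (637 to 677). Its rank was 103 of 477 listed microRNAs in rtTA cells with dox and 105 to 115 in the others. The level with dox and rtTA stands above the other 3, whose highest and lowest values differ by less. The highest level was 1.34 times the lowest, a narrower range than the median of 1.58 over the 372 microRNAs.

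miR-140, the 5p arm and the one named as the guide, had fewer counts than miR-140* by 10.1-fold, 16.3-fold, 12.7-fold and 12.2-fold in the same order of libraries. It had 81.0 CPM in rtTA cells with dox (74.7 to 87.7), 41.3 CPM in rtTA cells without dox (37.1 to 45.7), 47.9 CPM in cells without rtTA with dox (42.7 to 53.5) and 54.1 CPM in cells without rtTA or dox (48.5 to 60.1). The library with the induced shRNA is again highest, but here the rtTA library without dox is lowest. The levels span 1.96-fold, close to the upper quartile of 1.95 over the 372 microRNAs.

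miR-455*, the 5p arm, had 146.2 CPM in rtTA cells with dox (138 to 155), 81.5 CPM in rtTA cells without dox (75.6 to 87.7), 117 CPM in cells without rtTA with dox (109 to 126.04) and 128.2 CPM in cells without rtTA or dox (120 to 137). Its low value stands alone in the rtTA library without dox, while the other 3 lie closer together. miR-455, the 3p arm, had 47.3 CPM in rtTA cells with dox (42.5 to 52.5), 70.7 CPM in rtTA cells without dox (65.2 to 76.5), 67.6 CPM in cells without rtTA with dox (61.4 to 74.2) and 71.2 CPM in cells without rtTA or dox (64.8 to 78.0). Here the induced library is the low one, and the other 3 have overlapping intervals. The levels span 1.79-fold for miR-455* and 1.51-fold for miR-455, against the median of 1.58 over the 372 microRNAs.

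Averaged over the libraries the order was miR-140* (689 CPM), miR-455* (118), miR-455 (64.2) and miR-140 (56.0). The last 2 do not differ beyond their spread over libraries, and they change places in rtTA cells with dox, where miR-140 lay above miR-455. In rtTA cells without dox the intervals of miR-455* and miR-455 overlapped.

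**Figure D1:**
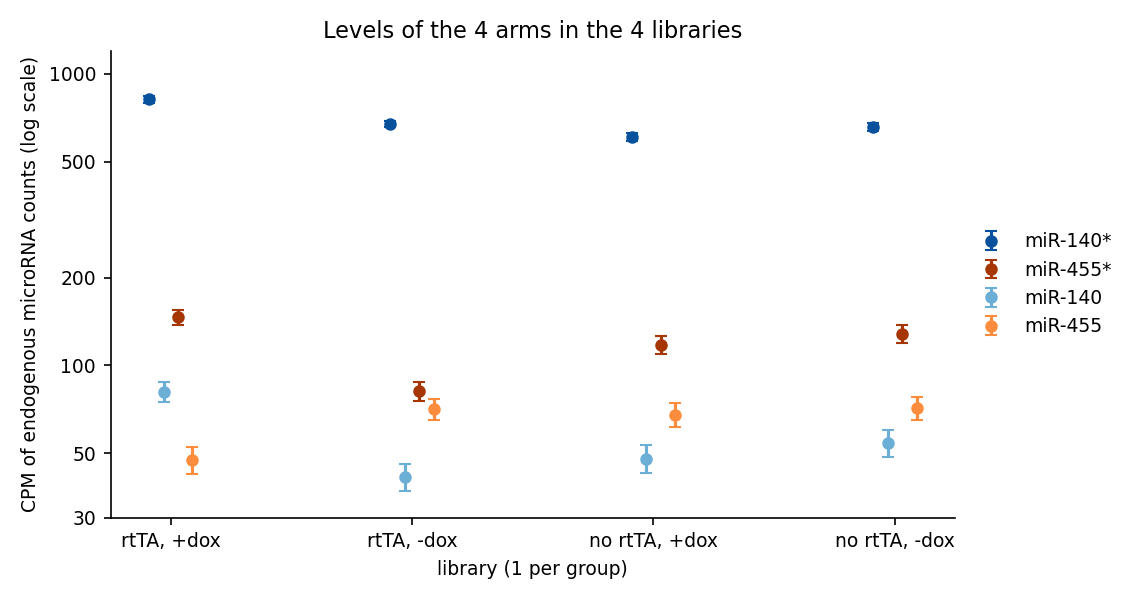
Level of each arm in CPM (log axis) in the 4 libraries, 1 per group; points are single libraries and bars are exact Poisson 95% intervals, counting error only. miR-140* lies between 609 and 817 CPM throughout, while miR-455* falls closest to miR-455 in rtTA cells without dox (81.5 and 70.7 CPM) and lies farthest from it in rtTA cells with dox (146.2 and 47.3 CPM).

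The share of the star-named arm, its counts over the counts of both arms, is free of library scaling. For miR-140 it was 91.0% in rtTA cells with dox (Clopper-Pearson 95% interval 90.3% to 91.7%, 6137 of 6745 counts) and 94.2% in rtTA cells without dox (93.6% to 94.8%, 5915 of 6277). In cells without rtTA it was 92.7% with dox (91.9% to 93.5%, 3980 of 4293) and 92.4% without (91.6% to 93.2%, 4192 of 4537). The 3p arm thus held more than 9 in 10 counts of this hairpin in all 4 libraries, with the lowest share in the induced one.

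The miR-455 hairpin was less one-sided and moved more. The star-named 5p arm held 75.6% in rtTA cells with dox (73.3% to 77.8%, 1098 of 1453 counts) and 53.6% in rtTA cells without dox (50.8% to 56.3%, 715 of 1335). In cells without rtTA it held 63.5% with dox (60.7% to 66.2%, 768 of 1210) and 64.3% without (61.6% to 66.9%, 818 of 1272). The rtTA libraries therefore lie on either side of the pair without rtTA, which have overlapping intervals. These dominant shares are what the rows were chosen on and are given as a description.

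Few star-named arms are dominant in these cells. Of 81 star-named pairs with enough counts, the median star share was 2.05% to 2.30% in the 4 libraries, and in 4 (4.94%) the star arm held more than the unstarred arm in all 4 libraries. Beside the miR-140 and miR-455 hairpins these are miR-136*, at 90.5% to 94.3%, and miR-193*, at 60.7% to 82.1%.

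**Figure D2:**
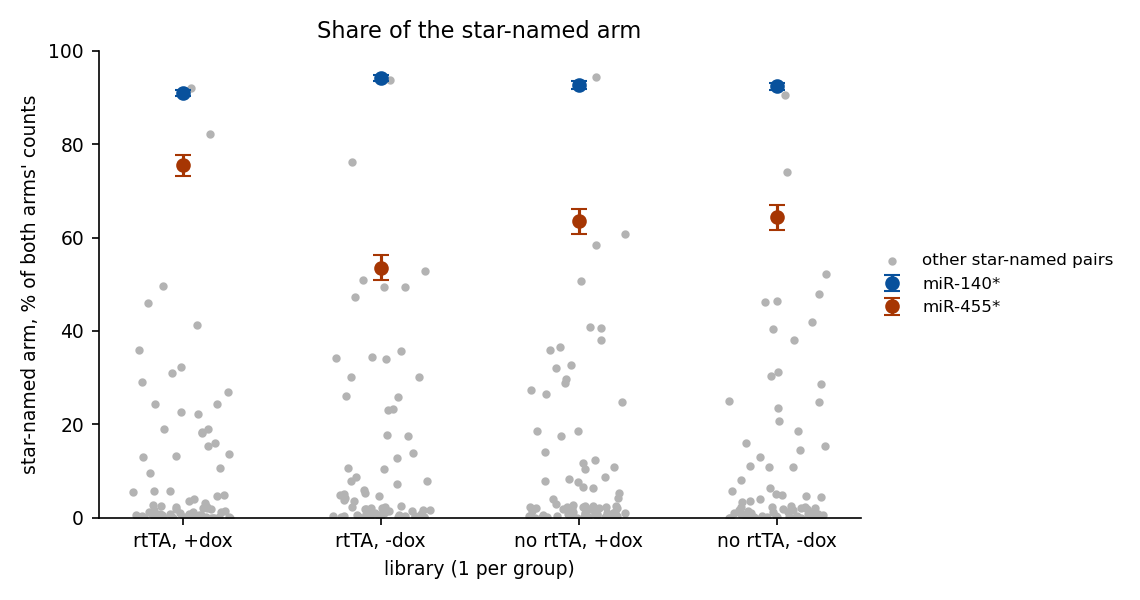
Percent of both arms' counts held by the star-named arm in each library, for miR-140* and miR-455* (bars: Clopper-Pearson 95% intervals) and for the other star-named pairs (grey points, spread sideways for legibility). miR-140* stays at 91.0% to 94.2% and miR-455* at 53.6% to 75.6%, while the median over all 81 pairs is 2.05% to 2.30%.

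Dox in rtTA cells sets the library with the induced shRNA against its uninduced counterpart and asks whether abundant shRNA comes with other levels of the cells' own microRNAs. Both 5p arms were close to 2-fold higher in the induced library, the abundant 3p arm of miR-140 was slightly higher, and the 3p arm of miR-455 was lower. miR-140 had 608 counts in rtTA cells with dox and 362 without, a log2 ratio of CPM of 0.97 (exact conditional binomial 95% interval 0.78 to 1.16; 1.96-fold). miR-455* had 1098 and 715 counts, a log2 ratio of 0.84 (0.71 to 0.98; 1.79-fold). miR-140* stood at 0.28 (0.23 to 0.33) and miR-455 at -0.58 (-0.77 to -0.39; 0.669-fold). All 4 intervals exclude equality, but none of the 4 reached the call of a 2-fold difference with an interval that excludes equality, which 9.95% of the 372 microRNAs did. miR-140 sits at the edge of that call and passes it with TMM or DESeq2 scaling, at 1.006 and 1.003, and miR-455* passes it at 1.06 when a trend on the percentage of G is subtracted.

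That trend matters for this pair of libraries: over the 372 microRNAs the Pearson correlation of the log2 ratio with the percentage of G in the mature sequence was 0.72, a description across microRNAs that are not independent replicates. Subtracting the trend takes off the whole fitted line, its intercept included, so it also shifts all values by a constant. The 4 arms hold 22.7% to 28.6% G, near the median of 23.8% (quartiles 18.2% and 31.8%), and with the trend subtracted their ratios were 0.996 (miR-140), 0.25 (miR-140*), 1.06 (miR-455*) and -0.41 (miR-455). The miR-455 arms, whose ratios were opposite, hold 22.7% (miR-455*) and 23.8% (miR-455) G. The cause of their opposite ratios was not tested.

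Summed over both arms the hairpins had nearly the same ratio. The miR-140 hairpin had 898 CPM in rtTA cells with dox and 715 CPM without, a log2 ratio of 0.33 (0.28 to 0.38). The miR-455 hairpin had 194 CPM with dox and 152 CPM without, a log2 ratio of 0.35 (0.24 to 0.46). The median log2 ratio of all 372 microRNAs, each arm taken singly, was -0.06, with quartiles of -0.45 and 0.29. The same was not computed for sums of both arms, so it is not a like background for these hairpin ratios.

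For both hairpins the balance of the arms differed most in this comparison. The odds of the star-named over the unstarred arm of miR-455 were 2.68-fold higher in rtTA cells with dox than without (2.28 to 3.15; log2 odds ratio 1.42), which is past the 2-fold call, and 1.40 on the log2 scale when a trend on the arms' difference in G was subtracted. Of 125 hairpins 20% were past that call, and 23, this one among them, were at least as far from equal odds. For miR-140 the odds of the star arm were 0.618-fold (0.540 to 0.707; log2 odds ratio -0.69), a shift toward the 5p arm that did not reach the call. The median distance from equal odds over the 125 hairpins was 0.56 on the log2 scale.

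Dox without rtTA gives the drug with the shRNA uninduced. Here the 4 arms stayed together near 0. The log2 ratios were -0.18 for miR-140 (-0.40 to 0.05; 313 counts with dox and 345 without), -0.11 for miR-140* (-0.17 to -0.05), -0.07 for miR-455 (-0.27 to 0.12) and -0.13 for miR-455* (-0.27 to 0.02). Only the interval of miR-140* excluded equality, at 609 CPM with dox and 657 CPM without. None of the 4 was called, against 1.61% of all 372. The log2 odds ratio of the star arm was 0.07 for miR-140 (-0.16 to 0.29) and -0.05 for miR-455 (-0.29 to 0.18). Neither was called, against 5.60% of hairpins, and 120 and 122 of the 125 hairpins were at least as far from equal odds. With the fitted line on G subtracted the odds values were -0.06 and -0.17, a shift common to both hairpins that is mostly the intercept of that line.

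The dox ratios with and without rtTA, which share no library, can be set against each other. The difference was 1.15 on the log2 scale for miR-140 (delta-method 95% interval 0.86 to 1.44), 0.97 for miR-455* (0.77 to 1.17), 0.39 for miR-140* (0.31 to 0.47) and -0.50 for miR-455 (-0.77 to -0.24). miR-140 alone of the 4 had a difference past the 2-fold call, as did 18% of all 372 microRNAs. miR-455* joins it at 1.05, 1.02 and 1.21 under TMM scaling, DESeq2 scaling and the subtracted G trend.

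**Figure D3:**
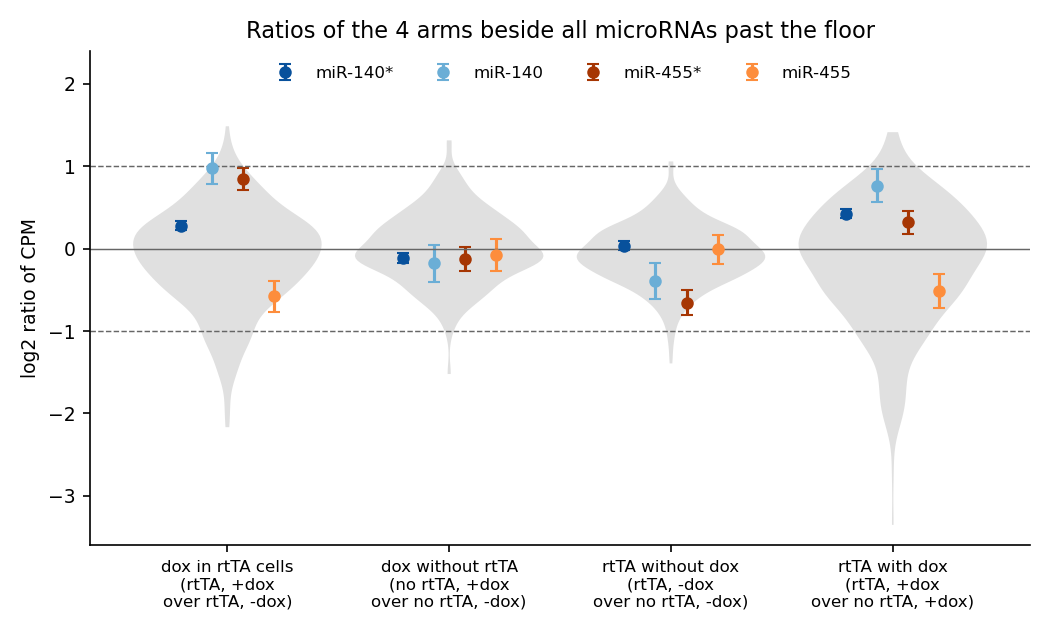
Log2 ratios of CPM of the 4 arms in the 4 comparisons (points; bars are exact conditional binomial 95% intervals) over the distribution of all 372 microRNAs past the floor (grey shapes, width shows density); dashed lines mark 2-fold. The arms spread from -0.58 to 0.97 with dox in rtTA cells and lie between -0.18 and -0.07 with dox in cells without rtTA.

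rtTA without dox sets rtTA cells against cells without rtTA, both with the shRNA uninduced. It shares the rtTA library without dox with the first comparison. The shRNA was not absent: its row had 6898 counts in rtTA cells and 4630 in cells without rtTA, against 5915 and 4192 for miR-140*. Both 5p arms were lower in rtTA cells, while the intervals of the 3p arms included equality. The blood and epithelial marker sums were highest in this rtTA library, although 0 epithelial markers passed the floor and 0 blood markers were called. Their part in these values was not tested. miR-455* had 81.5 CPM in rtTA cells and 128.2 CPM in cells without rtTA, a log2 ratio of -0.65 (-0.80 to -0.51; 0.635-fold). miR-140 had 41.3 and 54.1 CPM, a log2 ratio of -0.39 (-0.61 to -0.17). miR-140* was at 0.04 (-0.02 to 0.09) and miR-455 at -0.01 (-0.19 to 0.17), a value whose sign turns, to between 0.0088 and 0.063, with TMM or DESeq2 factors, with a total lacking the 10 most abundant microRNAs and with the G trend subtracted. None of the 4 was called, against 1.88% of all 372. The log2 odds ratio of the star arm was -0.64 for miR-455 (-0.87 to -0.42) and 0.43 for miR-140 (0.21 to 0.65). Neither was called, against 4.00% of hairpins, although 24 of 125 hairpins were at least as far from equal odds as miR-455 and the median distance was 0.26. Ratios and percentage of G had a Pearson correlation of -0.0038 here, so subtracting the fitted G line shifts the ratios by its intercept and hardly by G.

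rtTA with dox sets the induced library against dox-treated cells without rtTA. miR-140 had 81.0 CPM in rtTA cells and 47.9 CPM in cells without rtTA, a log2 ratio of 0.76 (0.56 to 0.96). miR-140* was at 0.43 (0.37 to 0.48), miR-455* at 0.32 (0.18 to 0.45) and miR-455 at -0.52 (-0.72 to -0.31). The directions match those of dox in rtTA cells, with which this comparison shares the induced library, but miR-455* was 1.25-fold higher here, against 1.79-fold there, where the low library without dox is the denominator. None of the 4 was called, against 16.7% of all 372. TMM and DESeq2 scaling raise every ratio of this comparison, moving the median of all microRNAs from -0.07 to 0.03, and the ratios correlated with the percentage of G at 0.69. With the G trend subtracted miR-455* stood at 0.63 and miR-455 at -0.26. The log2 odds ratio of the star arm was 0.83 for miR-455 (0.59 to 1.07) and -0.33 for miR-140 (-0.54 to -0.13). Neither was called, against 24.8% of hairpins.

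Sorting the arms by their place in the hairpin instead of by name, a view chosen after the values were seen, puts both hairpins on the same side in each comparison. The log2 odds ratio of the 5p over the 3p arm was 0.69 for miR-140 and 1.42 for miR-455 with dox in rtTA cells, and 0.33 and 0.83 for rtTA with dox. It was -0.43 and -0.64 for rtTA without dox, and -0.07 and -0.05 for dox without rtTA. There the value of miR-140 turns positive with the fitted G line subtracted, mostly by the intercept of that line. The comparisons share libraries, so these are not 4 separate observations. Over 110 hairpins whose arms could be placed by RefSeq names, the median was 0.14 with dox in rtTA cells, with 62 above 0, 14 past the 2-fold call toward the 5p arm and 6 toward the 3p arm. The medians were -0.15 for dox without rtTA, -0.04 for rtTA without dox and 0.06 for rtTA with dox.

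**Figure D4:**
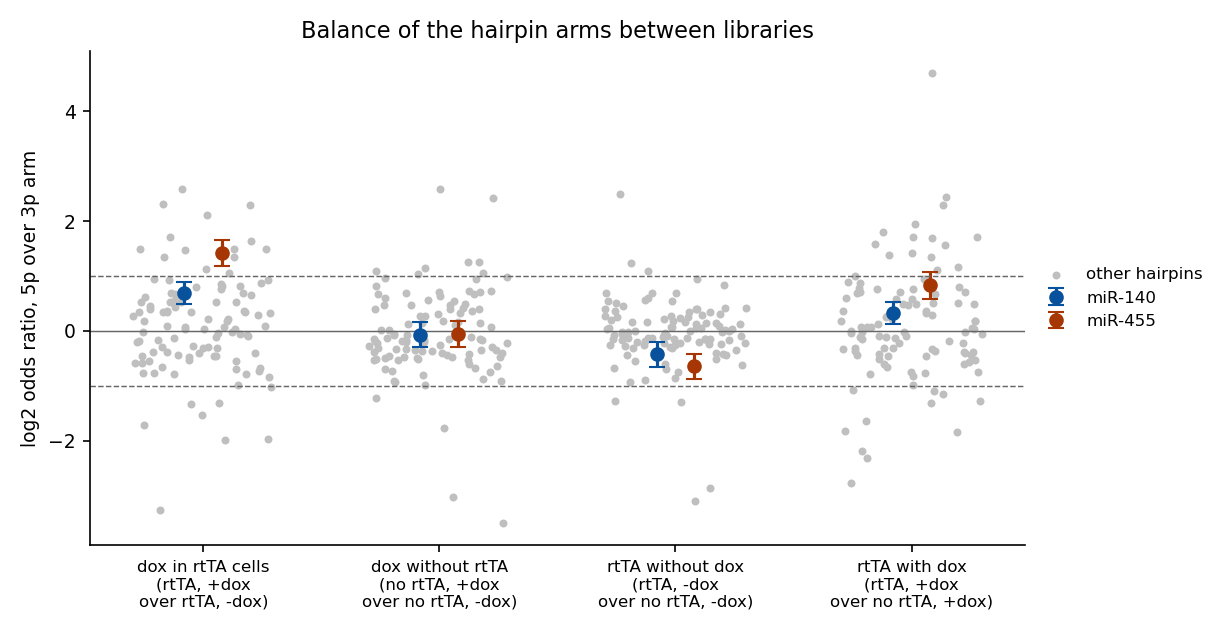
Log2 odds ratio of the 5p over the 3p arm in the 4 comparisons for miR-140 and miR-455 (bars: delta-method 95% intervals) and the other hairpins placed by RefSeq names (grey points, spread sideways); dashed lines mark 2-fold. miR-455 lies past the dashed line at 1.42 with dox in rtTA cells, miR-140 lies at 0.69, and both are near 0 with dox in cells without rtTA.

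The summed level of the miR-140 hairpin relative to the miR-455 hairpin was higher in both rtTA libraries than in both libraries without rtTA. It hardly differed between libraries with and without dox. With 1 library per group an effect of the genotype was not tested. Counts of the miR-140 hairpin were 4.64 times those of the miR-455 hairpin in rtTA cells with dox (95% interval 4.39 to 4.92) and 4.70 times in rtTA cells without dox (4.43 to 4.99). In cells without rtTA the ratio was 3.55 with dox (3.33 to 3.78) and 3.57 without (3.35 to 3.799). Without dox the difference came with the miR-455 hairpin, at 152 CPM in rtTA cells and 199.4 CPM in cells without rtTA (log2 ratio -0.39, -0.50 to -0.28), while the miR-140 hairpin was at 715 and 711 CPM (0.01, -0.05 to 0.06). With dox it came with the miR-140 hairpin, at 898 CPM in rtTA cells and 656 CPM in cells without rtTA (0.45, 0.40 to 0.51), while the miR-455 hairpin was at 194 and 185 CPM (0.06, -0.05 to 0.18).

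The microRNAs whose levels ran most like those of the star-named arms were found by the root mean square difference of log2 CPM over the 4 libraries, each microRNA centred on its own mean. Nearest to miR-140* were miR-298 (0.013), miR-22 (0.013), one of the most abundant fibroblast microRNAs, and miR-30c-2* (0.027), against a median difference of 0.30. Nearest to miR-455* were miR-503 (0.040), which is made from an X-linked cluster and restrains the cell cycle, miR-666-5p (0.11) and miR-679 (0.11), against a median of 0.39. The partner arms were farther off than these, which were picked as the nearest. miR-140 differed from miR-140* by 0.25, less than the median microRNA. miR-455 differed from miR-455* by 0.51, more than the median microRNA. miR-455* was nearer to miR-140, the other 5p arm, at 0.18. With 4 libraries such likeness is a description.

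**Figure D5:**
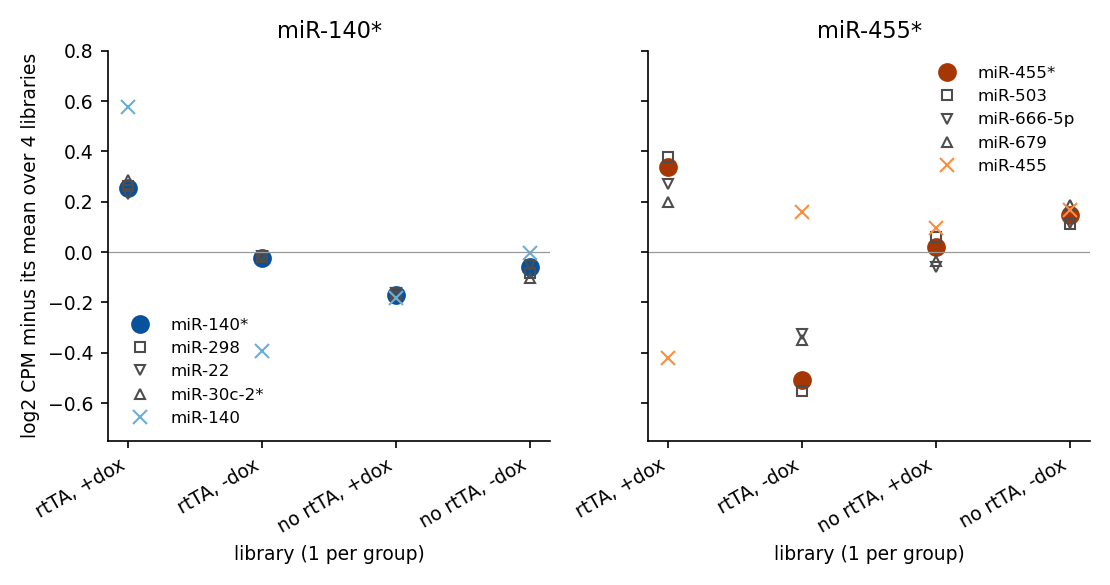
Log2 CPM minus its mean over the 4 libraries (1 library per group) for miR-140* (left) and miR-455* (right), each with the 3 nearest microRNAs (open grey symbols) and the partner arm (crosses). miR-455* and miR-503 share the low value in rtTA cells without dox, where miR-455 lies above its mean.

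Other microRNAs with a described role in chondrocytes were taken from a list of 25 names, of which 24 passed the floor. With dox in rtTA cells 0 were called higher and 2 lower, 8.33% of the list against 9.95% of all 372, with a median log2 ratio of -0.11 against -0.06 over all. That share is near the background. Those 2 were miR-365, known for its response to mechanical load in chondrocytes, with 20.6 CPM in rtTA cells with dox and 55.0 CPM without (log2 ratio -1.41, -1.69 to -1.15), and miR-1, a muscle microRNA, with 7.86 and 16.6 CPM (-1.08, -1.54 to -0.64). miR-365 holds 4.55% G, and with the G trend subtracted its ratio is -0.42 and no longer called, while miR-1, at 27.3% G, stays at -1.06. Dox without rtTA had 0 called in either direction (median 0.15 against -0.04). For rtTA without dox 1 was called higher, miR-1 (1.06, 0.59 to 1.55), and 0 lower (4.17% against 1.88% of all; median -0.05 against -0.07). miR-1 thus stands out by its level in the rtTA library without dox, which both comparisons share.

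For rtTA with dox 2 of the 24 were called higher and 2 lower (median -0.22 against -0.07), which is 16.7% of the list and also the share over all 372. Higher were miR-483, from within Igf2, with 661 CPM in rtTA cells and 262 CPM in cells without rtTA (log2 ratio 1.34), and miR-675-5p, which comes from H19 and has been tied to collagen expression in human chondrocytes, with 68.6 and 33.8 CPM (1.02). Lower were miR-365, with 20.6 and 88.7 CPM (-2.10), and miR-29c, which targets collagen transcripts, with 473 and 957 CPM (-1.02). With the G trend subtracted none of these 4 is called: miR-483 (50% G) is then at 0.26, miR-675-5p (40.9%) at 0.41, miR-365 at -0.86 and miR-29c (18.2%) at -0.47. None of them was called for dox without rtTA, although miR-365 was close to the call there, at 0.96 (0.76 to 1.17). It had 88.7 CPM in cells without rtTA with dox and 45.5 CPM without, and the former library is the denominator of its -2.10. The miR-140 and miR-455 arms stayed within 2-fold in each of these comparisons with the main scaling.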

How the data were processed

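Small RNA of mouse embryonic fibroblasts was sequenced in 4 libraries, 1 per group. The authors deposited raw read counts, 1 per microRNA and library, with 1 row for the shRNA, as the values and the file headers show; aligner, mismatches, multi-mapping rules and build: not given in the sources used here. MicroRNAs absent from a file were set to 0 in that library. Per the labels, RNA was extracted with phenol and chloroform.

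CPM over endogenous counts were computed from the counts, with a floor of 3.14 CPM (20 counts in the shallowest library). Where nothing was counted, up to 0.342 to 0.470 CPM (3 counts) would be allowed. Log2 ratios carry exact conditional binomial 95% intervals and odds ratios delta-method intervals with 0.5 added to each count. The code for both was checked on simulated independent Poisson counts, which says nothing about the spread between real libraries. A call needs 2-fold and an interval that excludes equality. Named microRNAs are the 4 arms, the 3 nearest profiles of each star arm, star-dominant hairpins, shared seeds and called members of the cartilage list. Members and lists were chosen with earlier results of these data known. Scaling alternatives used edgeR 4.0.16 (TMM) and DESeq2 1.42.0 size factors; other steps used Python 3.11.15, scipy 1.17.1 and pandas 2.3.3. Sequences were matched to RefSeq (GRCm38.p6) and host genes to GENCODE M21.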

Additional observations from a re-analysis of the deposited data

Results flagged for a closer look

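Among the 4 arms and 2 hairpins, 5 values pointed in opposite directions between the dox comparisons with and without rtTA, all but miR-455. How many of all microRNAs or hairpins did so was not counted, so the 5 have no background. The odds values rest on the same counts as the arms, and their differences carry no interval. With 1 library per group the difference was not tested. In 4 of the 5 the value without rtTA has an interval that includes equality; the exception is miR-140*. The log2 dox ratio with rtTA minus that without was 1.15 for miR-140 (0.97 and -0.18), 0.39 for miR-140* (0.28 and -0.11) and 0.97 for miR-455* (0.84 and -0.13). The log2 odds ratio of the star arm with rtTA minus that without was -0.76 for the miR-140 hairpin (-0.69 and 0.07) and 1.47 for the miR-455 hairpin (1.42 and -0.05). With the fitted line on G subtracted, its intercept included, the miR-140 odds value without rtTA turns to -0.06, so that both then point the same way. The miR-455 value without rtTA moves down likewise, from -0.05 to -0.17. The shift is thus common to both hairpins, whose arms differ in G in opposite directions, and is mostly the intercept.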

How the results depend on the processing

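No paired analysis was possible because each group holds 1 library. Under the scaling and G-trend alternatives, 140 values of arms, hairpins and dox differences were recomputed. Of these, 127 stayed on their side of the call and within the main interval, 6 newly passed the call and 7 moved outside the interval. The sign turned in 5 values, none of them called. Called with the main setting were only the miR-455 odds with dox in rtTA cells and the dox difference of miR-140, so that few values could lose or reverse a call. Neither did. The floors cannot change an arm's own ratio. The miR-455 odds with dox in rtTA cells stayed past the call, at 1.40 with the trend on G subtracted. miR-140 with dox in rtTA cells was 1.006 (TMM) and 1.003 (DESeq2). miR-455* was 1.06 there with the trend on G subtracted. The dox difference of miR-455* was 1.05 (TMM), 1.02 (DESeq2; both added after seeing the data) and 1.21 (G trend). With rtTA and dox, miR-140* was 0.53 with TMM and with DESeq2, its hairpin sum 0.55 and 0.56 (added after seeing the data), and with the G trend miR-455 was -0.26 and miR-455* 0.63. For rtTA without dox, miR-140* was 0.11 with the fitted G line subtracted. Ratios and percentage of G had a correlation of -0.0038 there, so that shift is almost all the intercept of the line.

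A call at 1.5-fold, which leaves the values as they are, takes in 7 more. These are, with dox in rtTA cells, miR-140 (0.97), miR-455* (0.84) and the miR-140 odds (-0.69). For rtTA without dox it takes in miR-455* (-0.65) and the miR-455 odds (-0.64), and for rtTA with dox miR-140 (0.76) and the miR-455 odds (0.83). It then calls 41 microRNAs higher and 66 lower (dox in rtTA cells; 49 hairpins), 28 and 29 (dox without rtTA; 28 hairpins), 9 and 26 (rtTA without dox; 15 hairpins) and 51 and 90 (rtTA with dox; 53 hairpins).

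With the G trend subtracted, 3 were called higher and 5 lower with dox in rtTA cells, against 5 and 32, and 11 hairpins against 25. With dox without rtTA 5 were lower, against 3. With rtTA and dox 13 were lower, against 53, and 16 hairpins were called, against 31. For rtTA without dox 3 hairpins were called, against 5. The dox differences called were 35, against 67. Lower floors changed the small counts: dox without rtTA had 6 lower with a floor of 5 counts, and 5 higher and 6 lower with none. rtTA without dox had 7 higher with a floor of 5 counts or none, and 8 lower with none. Its split of 2 higher and 5 lower was 3 and 4 with TMM or DESeq2 factors or a total lacking the 10 most abundant. The cause of these shifts was not tested. The unstarred arms rest on 313 to 620 counts a library, against 3980 to 6137 for miR-140*, so smaller differences are detectable for miR-140* than for them.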
